A study of Mus musculus with 4 samples.

Results

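Collagen genes were described in nuclei sorted from the mouse cervical spinal cord, to see which of them separate groups of neurons and whether their levels differed after injury. The members were all gene symbols made of Col, a number, a and a number, and 44 of the 32285 symbols in the count matrices met this rule. All mice were female and carried the genotype Chx10Cre/+; ROSA26CAG-LSL-Sun1-sfGFP-Myc/+, in which Cre made in the lineage of V2a interneurons switches on a green fluorescent protein of the nuclear envelope. Fluorescent nuclei were sorted and sequenced with the 10x Genomics 3' kit. The uninjured group had 2 libraries from segments C1 to C8. The injured group had 2 libraries from segments C3 to C8, taken 5 days after a hemisection at C2, and injury cannot be told apart from the range of segments. No label says how many animals went into a library, so p-values here measure only how far libraries differ, and that spread can be technical. Cre marks a lineage, so a nucleus can be fluorescent whatever the driver gene does at the time of sorting.

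Collagens are secreted or membrane proteins in which 3 chains wind into a triple helix, and each chain is coded by its own gene. Fibrillar collagens build fibres, type IV chains build the sheet of basement membranes, fibril-associated collagens sit on fibres, and transmembrane collagens stay anchored in the cell that makes them. In the cord, fibroblasts, pericytes and other vascular cells are known as collagen makers, and neurons use a smaller set, in which transmembrane and fibril-associated collagens have been tied to synapses and axons.

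The 4 libraries held 7128996 and 13496025 counts (uninjured 1 and 2) and 3982267 and 2901680 counts (injured 1 and 2), and 3583 of 4001 nuclei were kept. They fell into 19 clusters, drawn with all collagen genes left out of the clustering. Of these, 13 clusters with 2681 nuclei were neurons and 9 clusters with 2121 nuclei were called glutamatergic neuron-like. Nuclei of the neuron clusters 10, 12 and 14, of the oligodendrocyte-like clusters 1 and 4, the astrocyte-like cluster 13 and the oligodendrocyte precursor-like cluster 17 came nearly all from uninjured 2, which stands apart in this. Uninjured 2 shared 1 barcode with uninjured 1 and 1 with injured 1. Each gene is given by a pair of measures. Relative counts (CPM) are the counts that remained after the authors' subtraction of free RNA, summed over nuclei and set to the same total in each sum. The stored share is the percentage of nuclei whose matrix lists the gene at all, a 0 included, which is read here as detection before the subtraction.

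The promoters of the genes that the results turn on are shown first, each as the 250 bases before the RefSeq start, read 5′ to 3′ along the gene (RefSeq, GRCm38.p6). Capitals mark matches on either strand to the motifs searched, so that the reverse complement of a motif is marked too. The GC box, a binding site of Sp factors, was spelled GGGCGG. The box of the factor NF-Y was spelled CCAAT. The box of the TATA-binding protein was spelled TATAAA. The palindrome that many homeodomain factors bind was spelled TAATTA. No matches of different motifs overlapped in these windows. The windows lie at chr3:145292222-145292471 (plus strand) for Col24a1, chr16:57754738-57754987 (minus) for Col8a1, chr3:130180595-130180844 (plus) for Col25a1 and chr17:34038888-34039137 (plus) for Col11a2. The last entry is the 71 bases that separate the starts of Col4a4 and Col4a3, at chr1:82586850-82586920, read along Col4a4, and holds no match.
Col24a1: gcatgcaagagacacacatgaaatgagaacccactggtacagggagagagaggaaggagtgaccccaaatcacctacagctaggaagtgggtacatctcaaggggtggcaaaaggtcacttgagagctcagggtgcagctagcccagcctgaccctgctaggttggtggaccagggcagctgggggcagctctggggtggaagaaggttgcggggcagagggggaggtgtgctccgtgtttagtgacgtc
Col8a1: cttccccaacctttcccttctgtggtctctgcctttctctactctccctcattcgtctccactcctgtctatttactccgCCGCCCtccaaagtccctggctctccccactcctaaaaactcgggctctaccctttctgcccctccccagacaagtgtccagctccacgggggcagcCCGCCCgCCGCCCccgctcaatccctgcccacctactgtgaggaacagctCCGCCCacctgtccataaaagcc
Col25a1: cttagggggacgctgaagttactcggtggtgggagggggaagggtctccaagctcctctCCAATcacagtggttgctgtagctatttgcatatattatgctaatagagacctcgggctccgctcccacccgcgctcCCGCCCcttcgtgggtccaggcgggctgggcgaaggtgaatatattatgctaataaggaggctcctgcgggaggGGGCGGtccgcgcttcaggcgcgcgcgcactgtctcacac
Col11a2: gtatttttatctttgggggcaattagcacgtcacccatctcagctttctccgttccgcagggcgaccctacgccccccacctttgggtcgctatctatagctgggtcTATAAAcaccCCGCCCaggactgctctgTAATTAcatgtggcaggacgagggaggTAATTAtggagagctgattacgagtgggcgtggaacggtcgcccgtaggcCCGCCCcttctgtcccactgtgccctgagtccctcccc
Col4a4 to Col4a3: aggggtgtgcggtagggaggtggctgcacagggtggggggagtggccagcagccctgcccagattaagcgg

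The Col24a1 window held none of the 4 motifs, the Col8a1 window held 4 GC boxes, the Col25a1 window held 3 matches and the Col11a2 window held 5, among them the TATA box and TAATTA at 2 places. Promoter windows were found for 35 of the 44 genes, 38 windows in all. A GC box was present in 22 of the 38 (57.9%), against 32.7% of all 32851 windows. This does not allow for base content, as the collagen windows had a median of 59.0% G and C, against 52.4% in all windows. CCAAT was present in 34.2% against 33.8%, the TATA box in 13.2% against 12.4% and TAATTA in 5.26% against 4.84%. These matches describe letters in a window and not sites in use.

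All 44 genes had a stored entry somewhere, and 43 had a count. The exception was Col13a1, a transmembrane collagen, with 61 stored entries and 0 counts. A stored entry in at least 10% of the nuclei of a cluster was reached by 35 genes, of which 28 reached it in a neuron cluster. The other 9 genes (Col2a1, Col6a4, Col6a5, Col6a6, Col7a1, Col8a2, Col10a1, Col17a1 and Col28a1) had between 7 and 29 counts each over all nuclei. In CPM, 29 of the 43 genes with a count were highest in a non-neuronal cluster, against 46.9% of all 24531 genes with a count, and 20 of them in cluster 18, the pericyte or fibroblast-like nuclei, against 10.7%. In cluster 18, 1 count is 30.5 CPM.

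**Figure D1:**
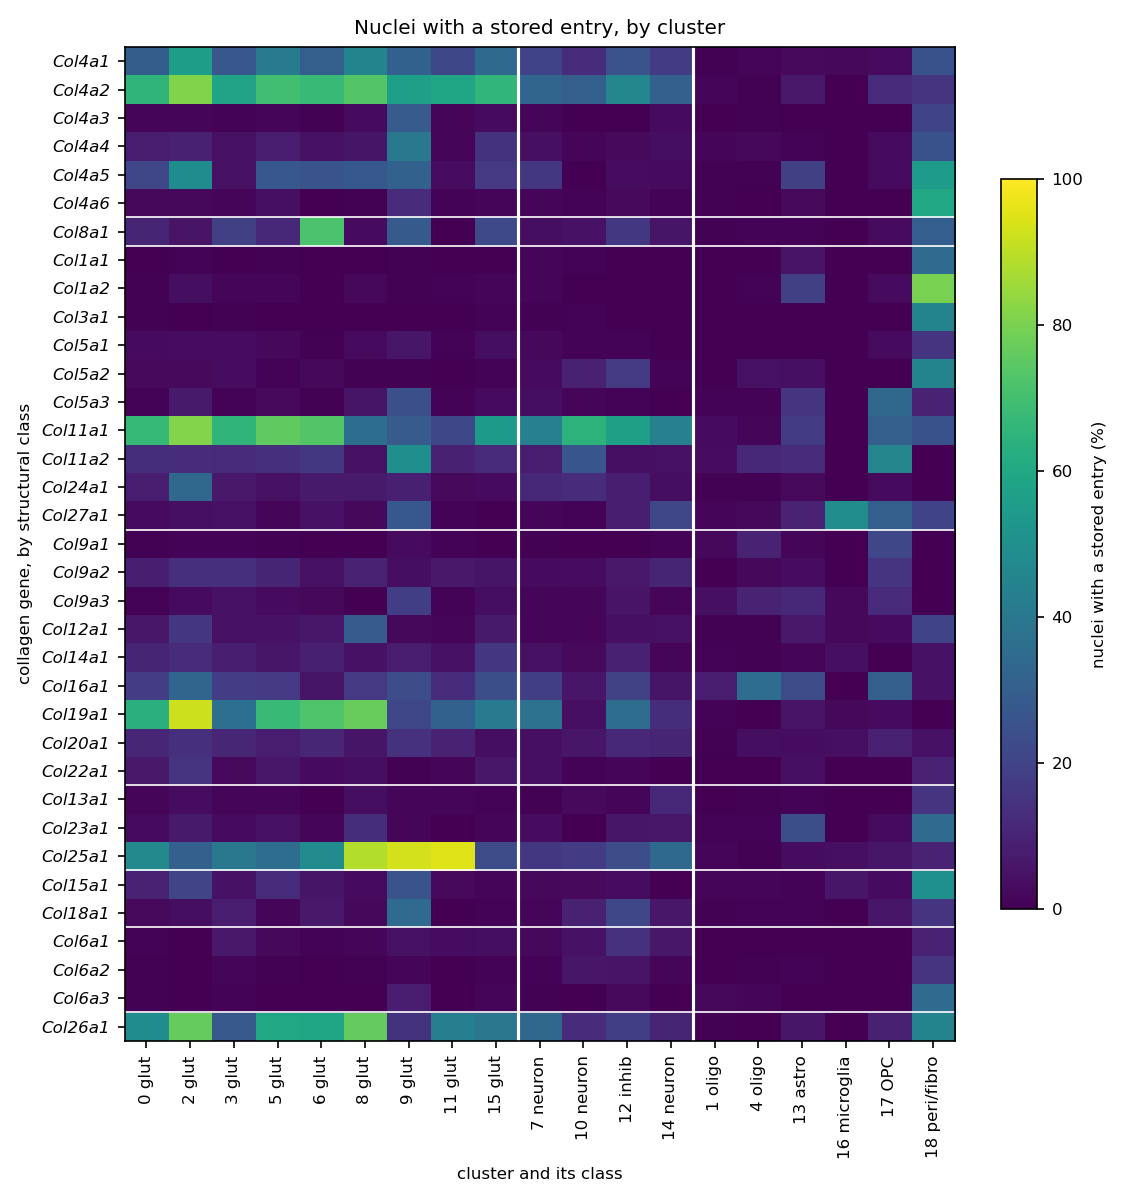
Percentage of nuclei with a stored entry (colour, 0 to 100%) for the 35 collagen genes that reached 10% in a cluster (rows, by structural class) in the 19 clusters (columns, glutamatergic neurons, other neurons and non-neuronal nuclei, parted by white lines). Col25a1 exceeds 88% in clusters 8, 9 and 11, Col8a1 stands out in cluster 6, and Col1a2 reaches 80.0% in cluster 18.

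A gene was said to mark a neuron cluster where its CPM was at least 4-fold that of the other neurons of the same library, in every library with at least 10 nuclei in the cluster, at least 2 libraries reached that number, and at least 10% of the cluster's nuclei held a stored entry. Clusters 10, 12 and 14 rest on uninjured 2 alone and could not be marked. A rest with fewer than 3 counts was set to 3 counts. By this rule 10 of the 28 collagen genes that could be tested marked a cluster, 35.7% of them, against 1.49% of all 13520 genes (202). Col5a2, Col6a1 and Col13a1 reached 10% only in those 3 clusters, which leaves 10 of 25 collagens, against 1.52% of 13314 genes. On the stored share at 2-fold, 16 of the 28 did (57.1%), against 7.41% of all genes, or 16 of the 25 against 7.53%. In uninjured 2 alone, at least 4-fold with a stored entry in 10% of nuclei was reached by Col11a1 (6.49-fold) and Col11a2 (18.7-fold) in cluster 10, by Col5a2 (5.83-fold, 5 counts), Col6a1 (18.7-fold) and Col18a1 (10.8-fold) in cluster 12 and by Col27a1 (5.65-fold) in cluster 14, with no second library to compare. These are descriptions, with no test, since the clusters were drawn from the same nuclei. Cluster 9 (leading genes Irs4, Prom1 and Hmcn2; 135 nuclei) carried 8 of the 10, and 144 genes of all kinds marked it. With the rest set to 3 counts, 1 count there could pass 4-fold. This was so for Col9a3 in uninjured 2 (9.13-fold) and Col5a3 in injured 2 (7.90-fold). For a gene nearly absent from the other neurons, the rule thus asks for fewer counts in a small cluster than in a large one. Cluster 2 (Plbd2, Adamtsl5, Scn4b; 441 nuclei) carried Col24a1, cluster 6 (Nfix, Tns3, Sccpdh; 218 nuclei) carried Col8a1 and cluster 11 (Calcrl, Has2os, Cbarp; 119 nuclei) shared Col25a1 with cluster 9. No collagen gene marked clusters 0, 3, 5, 7, 8 or 15.

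Among the type IV chains, which build the basement membrane network, Col4a3 and Col4a4 marked cluster 9. Col4a3 stood there at 78.6, 54.7, 69.4 and 52.0 CPM (uninjured 1, uninjured 2, injured 1, injured 2), and the other neurons held 4 counts of it in all. Its stored share was 33.3%, 31.7%, 14.7% and 38.1% in cluster 9 and 1.53% in the other neurons pooled. Injured 1 gave the lowest share, with an exact 95% interval of 4.95% to 31.1% for 34 nuclei. Col4a4 stood at 169, 114, 162 and 26 CPM in cluster 9, the last from 3 counts, and at 1.21 CPM in the other neurons pooled, where 25 of the 29 counts came from uninjured 1. Its stored share was 46.2%, 39.0%, 32.4% and 42.9% against 6.40%. With the other neurons weighted to the numbers of stored genes in cluster 9, the stored share of Col4a3 was 17.1-fold to 42.7-fold higher over the libraries and that of Col4a4 4.97-fold to 13.1-fold.

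These are paired genes. Col4a3 (chromosome 1, 82586921 to 82722059, plus strand) and Col4a4 (82448423 to 82586849, minus strand) start 72 bases apart and are read in opposite directions (GENCODE M21, GRCm38). They were also stored in the same nuclei. In cluster 9, 32 of the 39 nuclei with Col4a3 also held Col4a4 (82.1%), against 22.9% of the nuclei without Col4a3. The direction was the same in each library, where Col4a4 was held by 76.9%, 84.6%, 60.0% and 100% of the nuclei with Col4a3. Nuclei with both numbered 32, and 15.6 would be expected if the genes were stored independently, a figure that does not allow for depth. Col4a5 and Col4a6 start 1309 bases apart on the X chromosome. Col4a6 was stored in 31.0% of the cluster 9 nuclei with Col4a5 and in 4.30% of those without. Col4a1 and Col4a2, whose starts lie 21 bases apart on chromosome 8, showed a smaller contrast in cluster 9, with Col4a2 stored in 69.0% of the nuclei with Col4a1 and 50.5% of those without.

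Col4a6 marked cluster 9 at a low level. It stood there at 25.4, 22.4, 41.6 and 34.6 CPM and was stored in 15.4%, 12.2%, 8.82% and 14.3% of nuclei, against 0.42 CPM and 1.77% in the other neurons. Its partner Col4a5 was spread over more clusters and was highest among neurons in cluster 2, at 29.9, 22.0, 24.2 and 23.3 CPM, with a stored share of 56.0%, 47.3%, 47.0% and 47.4%. Cluster 2 was the deepest (median 13961 counts per nucleus), and with the other neurons weighted to its numbers of stored genes the Col4a5 share there was only 1.51-fold to 1.90-fold higher. Col4a1 and Col4a2, the chains of nearly all basement membranes, were stored in 33.2% and 61.0% of all neurons and in 0.732% and 1.32% of oligodendrocyte-like nuclei, which were shallower (median 1782 against 7571 counts).

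Col8a1, a short-chain network collagen known from vessel walls and the eye, separated cluster 6. Its level there was 471, 444, 288 and 217 CPM, against 22.5, 21.4, 6.91 and 4.64 CPM in the other neurons of the same libraries. Its stored share was 77.4%, 68.4%, 72.1% and 67.6%, with 10.2% in the other neurons pooled. Every library showed the contrast, which the marking rule requires, and the weighted stored share was 5.18-fold to 11-fold higher. The median fold in counts over libraries was 31.3, and 16.3 where collagens were allowed in the clustering. Cluster 9 held the next highest neuronal level (160 CPM pooled), then cluster 3 (54.4 CPM) and the inhibitory neuron-like cluster 12 (43.2 CPM). No count of Col8a1 was found in clusters 2, 8 and 11, nor in the 683 oligodendrocyte-like nuclei, where 3 counts would be 2.19 CPM. The pericyte or fibroblast-like nuclei had 1340 CPM of it from 44 counts. Of the 9 pericyte and fibroblast markers, cluster 6 held counts of 1 in uninjured 1 and of 0 in the other 3 libraries, and their sum ranged from 0 to 1.66 CPM.

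Among the fibrillar genes, Col24a1 separated cluster 2. It stood at 44.6, 31.3, 50.5 and 33.8 CPM, against 3.22, 1.21, 1.24 and 5.02 CPM in the other neurons. Its stored share was 38.7%, 31.4%, 35.0% and 32.1% in cluster 2 and 7.28% elsewhere. The only other neurons above 10 CPM were the shallow cluster 7 (21.8 CPM), which the markers left unnamed. Weighted to the depth of cluster 2, the stored share was 1.38-fold to 3.08-fold higher, at least 2-fold in 3 of 4 libraries, and the pooled contrast in counts was 17.4-fold. The median fold in counts over libraries was 19.9, and 41.3 against glutamatergic nuclei alone. The weighted stored share was lowest in uninjured 2, and the fold in counts in injured 2 (6.74). The gene (chromosome 3, 145292472 to 145552011, plus strand) overlaps 9530034A14Rik on the other strand and D530037P16Rik on its own, and reads of overlapping genes may not be told apart.

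Col11a2 and Col5a3, both fibrillar chains that join other chains in mixed fibres, marked cluster 9. Col11a2 stood there at 64.7, 52.2, 97.2 and 8.66 CPM, the last from 1 count, and was stored in 61.5%, 53.7%, 47.1% and 23.8% of nuclei, against 12% elsewhere. Col5a3 stood at 43.9, 9.94, 64.8 and 8.66 CPM, from 19, 4, 14 and 1 counts. It was stored in 23.1%, 24.4%, 20.6% and 33.3%, against 2.67%. Both were also present in oligodendrocyte precursor-like nuclei (158 and 136 CPM), of whose 6 markers cluster 9 held 0 to 2 with a summed level of 0 to 17.3 CPM. Of the 9 pericyte and fibroblast markers, only Rgs5 had counts in cluster 9, 1 in uninjured 1 and 2 in injured 1, with a summed level of 0 to 9.25 CPM. Pdgfrb, Dcn, Lum and the others were at 0 counts in all 4 libraries there. Rgs5 was stored in 5.13%, 0.0%, 11.8% and 4.76% of cluster 9, against at most 0.749% of the other neurons of a library. Lum and Dcn each reached 4.76% in injured 2, against at most 0.0832% and 0.624% of the other neurons. Pdgfrb, Kcnj8 and Vtn had no stored entry in cluster 9, and Igfbp7 was stored less often there than in the other neurons. Col27a1 was stored in 35.9%, 36.6%, 20.6% and 4.76% of cluster 9, and it missed the rule in counts because injured 2 held 0. Its highest level was in the microglia and macrophage-like cluster (516 CPM). Markers of microglia and macrophages summed to 27.8 to 96.9 CPM in cluster 9, against 75.5 to 214 CPM in all glutamatergic nuclei. Astrocyte markers summed to 0.0 to 69.4 CPM in cluster 9, from at most 1 gene per library, against 0.0 to 12.9 CPM. Col11a1 behaved differently: it was stored in 21.8% to 81.6% of the nuclei of every neuron cluster, and its CPM was highest in cluster 10 (Npy1r, Ccdc172, Unc5cl), at 1346 CPM, and lowest in cluster 11, at 4.2 CPM from 3 counts.

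Of the fibril-associated genes, Col9a3 marked cluster 9 with few counts, 5, 1, 3 and 2 in the 4 libraries. Its stored share was 17.9%, 26.8%, 14.7% and 9.52% against 2.40% in the other neurons. It overlaps Tcfl5 on the other strand. Col19a1, known from synapse formation in the forebrain, was stored in 92.3% of cluster 2 and 76.8% of cluster 8 but in 4.2% of cluster 10. It had 298 CPM in cluster 2 and 0 counts in cluster 10. Col12a1 was stored in 40.7%, 28.9%, 21.1% and 28.6% of cluster 8 (Fam129a, Hgf, Lrrc24), 2.40-fold to 4.87-fold the weighted share elsewhere. Its counts there were 14, 10, 3 and 3, so it met the stored rule but not the rule in counts. Col22a1 met the stored rule in cluster 2, where the weighted share was 1.62-fold to 3.26-fold higher. Col9a2, Col14a1, Col16a1 and Col20a1 reached 10% in neurons, at most 14.1%, 15.7%, 32.4% and 14.1% of a cluster, and marked none. Col16a1 was highest in the oligodendrocyte-like cluster 4 (144 CPM), and its stored share in oligodendrocyte-like nuclei (17.1%) was near that in neurons (18.6%).

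Col25a1, a transmembrane collagen known for its role in motor innervation, marked clusters 9 and 11. It was stored in 97.1%, 85.2%, 100% and 97.0% of cluster 11 and in 92.3%, 95.1%, 94.1% and 90.5% of cluster 9. The neurons outside cluster 9 held it in 40.5%. The weighted stored share was only 2.20-fold to 2.54-fold higher in cluster 11 and 1.92-fold to 2.44-fold in cluster 9. Cluster 9 missed the stored rule, at 1.95-fold in uninjured 1. In cluster 11 Col25a1 stood at 1351, 1299, 1568 and 1291 CPM, and in cluster 9 at 828, 1235, 967 and 1758 CPM. The other neurons of each library stood between 175 and 228 CPM. Cluster 8 came next at 674 CPM, and cluster 2 lowest at 33.6 CPM. The gene spans 468377 bases (chromosome 3, 130131501 to 130599877), and its RefSeq window shown above lies inside this span. Oligodendrocyte-like nuclei held a stored entry in 1.02% and 0 counts. Col23a1, also transmembrane, met the stored rule in cluster 8 (14.8%, 18.4%, 7.89% and 11.4% of nuclei) with 3 counts in all there.

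The multiplexins, collagens of basement membrane zones, are Col15a1 and Col18a1. Col18a1 marked cluster 9 at 32.4, 19.9, 92.5 and 34.6 CPM, with a stored share of 41.0%, 26.8%, 41.2% and 28.6% against 4.60%. It overlaps Slc19a1 on the other strand. It also reached 21.6 CPM in the inhibitory neuron-like cluster 12. Col15a1 met the stored rule in cluster 2, but its weighted share was only 1.08-fold to 1.90-fold higher. Col26a1, which belongs to no large class, was stored in 76.4% of cluster 2 and 76.1% of cluster 8 and in 14.8% of cluster 9, where 3 counts were left. The type VI genes, of beaded filaments, reached 10% in neurons only through Col6a1, in 14.4% of cluster 12.

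**Figure D2:**
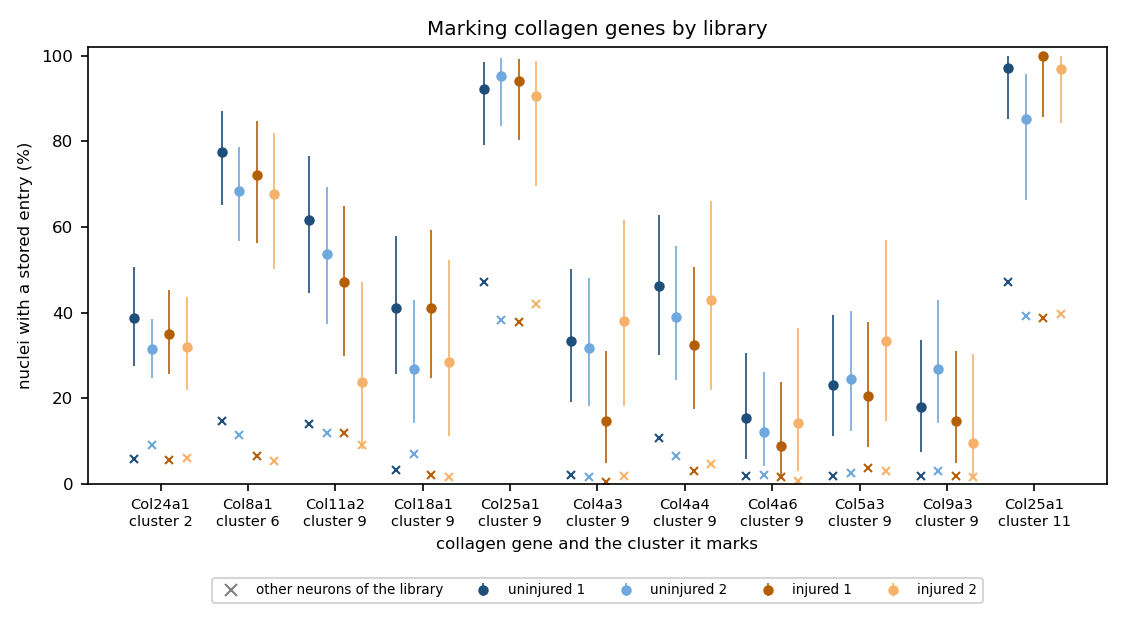
Percentage of nuclei with a stored entry for the 10 collagen genes that marked a neuron cluster, with Col25a1 shown for clusters 9 and 11. Each circle is 1 library in the marked cluster with its exact 95% interval, which covers counting error only, and each cross is the other neurons of that library. All circles lie above their crosses, which largely follows from choosing these genes by their counts in the same nuclei. Col8a1 in cluster 6 ranges from 67.6% to 77.4%.

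The 8 genes were chosen for their level in cluster 9, so their number per nucleus there describes that choice and supports nothing further. At least 2 of them were stored in 82.1%, 80.5%, 79.4% and 76.2% of its nuclei, against 16.5%, 14.1%, 9.77% and 10.9% of the other neurons. At least 4 were stored in 46.2%, 34.1%, 29.4% and 33.3%, against at most 0.624%.

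Non-neuronal nuclei had their own collagens. The pericyte or fibroblast-like cluster held Col1a2 at 1097 CPM in 80.0% of its 20 nuclei, Col4a6 at 1310, Col4a5 at 1158, Col23a1 at 731 and Col15a1 at 701 CPM. Col3a1 was stored in 45% and Col1a1 in 35.0% of these nuclei, and neither exceeded 1.4% of any neuron cluster. Col1a2 was also stored in 18.8% of astrocyte-like nuclei. The oligodendrocyte precursor-like cluster (33 nuclei) led for Col9a1 (21.2% stored) and Col20a1 (147 CPM). With 20 and 33 nuclei, nearly all of them from uninjured 2 in the latter, injury was not compared in these classes.

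The counts of several widely stored collagens were emptied in whole libraries. Col4a2 was stored in 71.6%, 69.6%, 62.8% and 65.5% of the glutamatergic nuclei, but its counts there were 0, 281, 196 and 0. Col4a1 was stored in 41.2%, 37.7%, 34.4% and 32.1%, with 101, 0, 109 and 0 counts. The stored shares thus overlap closely between libraries that differ between 0 and over 100 in counts. Of 17 collagen genes stored in at least 5% of these nuclei in every library, 4 had 0 counts in at least 1 library, Col9a2 and Col22a1 being the others. The CPM of these genes cannot be compared between libraries.

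**Figure D3:**
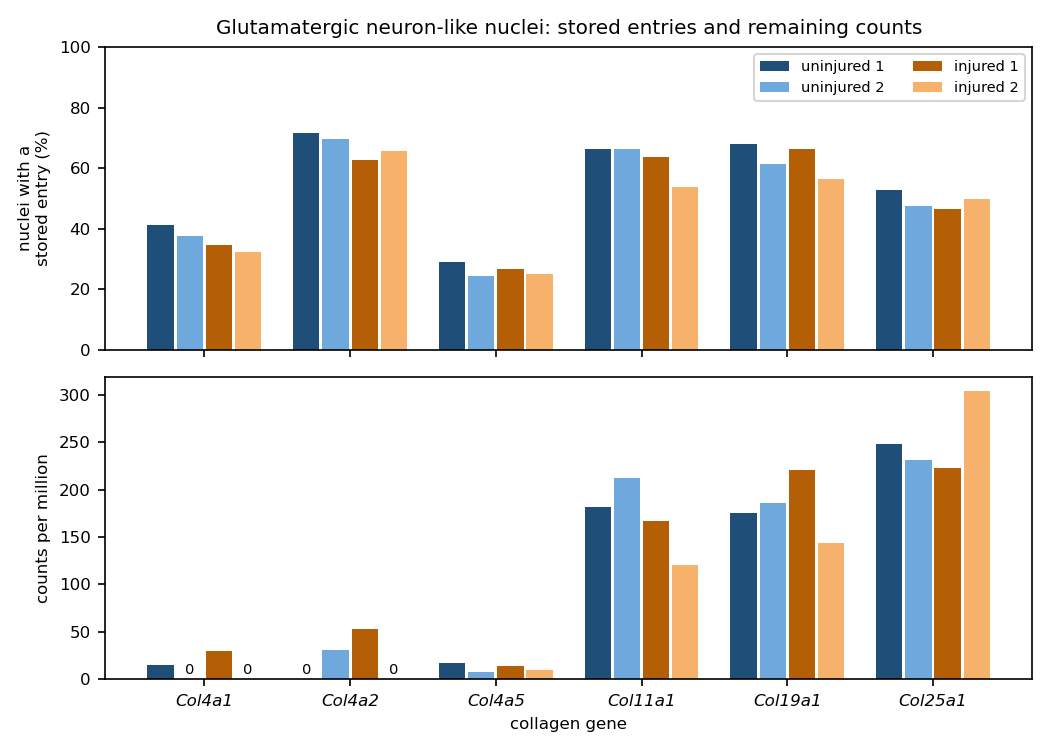
Stored share (top, % of nuclei) and CPM (bottom) of 6 collagen genes in the glutamatergic neuron-like nuclei, 1 bar per library. Col4a1 and Col4a2 have similar stored shares in all 4 libraries but 0 counts (marked 0) in 2 libraries each, while Col11a1, Col19a1 and Col25a1 keep counts in each.

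For the injury comparison, counts were summed over the glutamatergic nuclei of each library. No collagen gene passed edgeR's quasi-likelihood test: 21 of the 44 were testable, 13 with a positive and 8 with a negative log2 fold change, and their adjusted p was 0.9996 for each. The background was also empty, with 0.0% of 11052 genes called, and 213 genes (1.93%) had an unadjusted p under 0.05, among them 1 of the 21 collagens. DESeq2 called 11 genes and limma 0, with no collagen among them. The median log2 fold change was 0.20 over the collagens and 0.05 over all genes. Fewer cells of a type and less RNA per cell cannot be told apart in such sums.

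Col8a1 was the collagen with an unadjusted p under 0.05. It stood at 62.7 and 47.2 CPM in the uninjured and 26.1 and 26 CPM in the injured libraries, 55.0 ± 11 against 26.1 ± 0.131 (SD, n = 2 each). Both injured values lie below both uninjured values. The log2 fold change was -1.08 (SE 0.31; edgeR unadjusted p = 0.0230, adjusted 0.9996). Within cluster 6, where the stored shares of the groups overlapped, it was -0.79 (SE 0.25; unadjusted p = 0.0169, adjusted 0.9996). Within cluster 9 it was -1.62 (SE 0.45; unadjusted p = 0.0076, adjusted 0.9994). There the level was 224 and 172 CPM in uninjured and 60.2 and 69.3 CPM in injured nuclei, and the stored share 41.0% and 41.5% against 8.82% and 9.52%. Weighted to equal numbers of stored genes, the cluster 9 share was 38.5% and 42.6% against 11.3% and 13.1%, a difference of -28.3 percentage points. An exact permutation test of 2 libraries against 2 can give no p below 0.33, which is the value here. The injured share rests on 3 of 34 and 2 of 21 nuclei. Whether cluster 6 differed from the other glutamatergic nuclei in this was tested as an interaction, with a log2 value of 1.08 (unadjusted p = 0.0032, adjusted 0.443). A positive value means that Col8a1 was lowered less in cluster 6 than in the other nuclei. For cluster 9 the interaction was -0.79 (SE 0.60; edgeR unadjusted p = 0.186) and was not called.

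**Figure D4:**
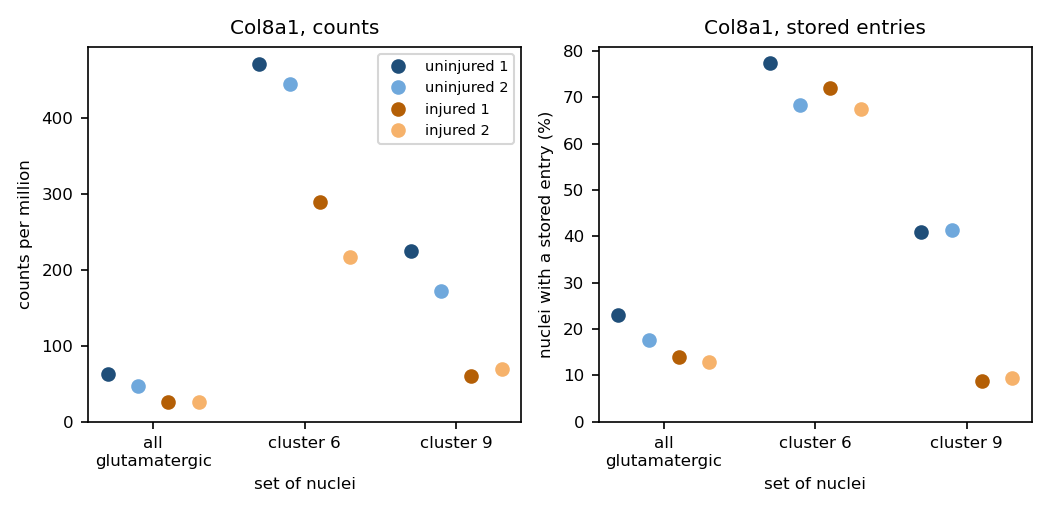
CPM (left) and percentage of nuclei with a stored entry (right) of Col8a1 in all glutamatergic nuclei, cluster 6 and cluster 9, 1 point per library. In cluster 9 the uninjured stored shares are 41.0% and 41.5% and the injured ones 8.82% and 9.52%, while in cluster 6 the groups overlap in stored share.

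The other marking collagens did not pass the test either. Col25a1 stood at 248, 231, 223 and 304 CPM in the glutamatergic nuclei, with a log2 fold change of 0.11 (SE 0.19). Col24a1 stood at 12.4 and 10.8 against 19.7 and 13.0 CPM, with 0.49 (SE 0.54). Col4a3 had -0.26 (SE 0.92) and Col4a4 -0.71 (SE 1.25), so that a change of either sign of more than 2-fold lies within 2 standard errors. Col26a1 stood at 61.3 and 75.1 against 102.2 and 82.7 CPM, with 0.42 (SE 0.29). Within cluster 6 it stood at 56.3 and 59.5 against 119 and 131 CPM, with 1.16 (SE 0.36; edgeR unadjusted p = 0.0172, adjusted 0.9996). Its stored shares in cluster 6 overlapped, at 64.5% and 53.9% against 51.2% and 70.3%. Col27a1 within cluster 9 held 39, 31, 6 and 0 counts (unadjusted p = 0.0436, adjusted 0.9994). Within clusters 0, 2, 6, 8, 9 and 11, edgeR called 0 genes of any kind (0.0%), and 4 of 37 collagen tests, those given above, had an unadjusted p under 0.05, against 2.4% of the 31210 tests of all genes. As an interaction of cluster and injury, edgeR called 0.0% of genes in clusters 0 and 2, 0.267% in cluster 6, 0.216% in cluster 8, 0.561% in cluster 9 and 0.0437% in cluster 11. Among them was 1 collagen, Col11a1 in cluster 8, whose counts there were 0, 3, 22 and 2. It lost the call without injured 1 (log2 interaction 1.62, adjusted p = 1.0) and without uninjured 1 (2.82, adjusted p = 0.109), and the value was 9.41 without uninjured 2.

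**Figure D5:**
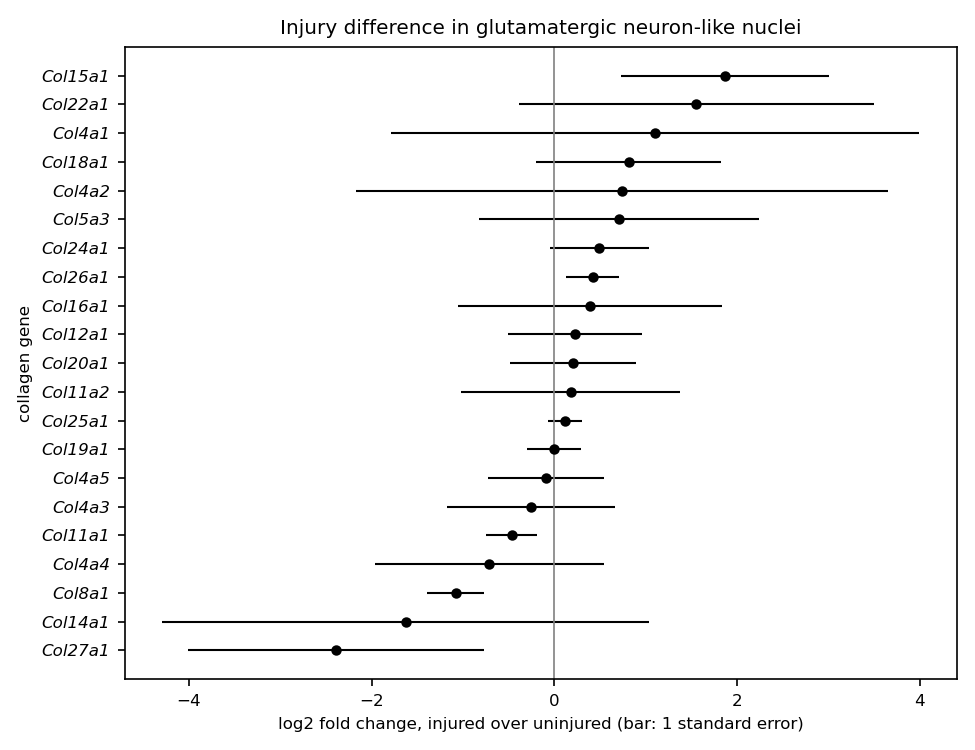
Log2 fold change, injured over uninjured, of the 21 testable collagen genes in glutamatergic nuclei (points, edgeR) with 1 standard error (bars). The error is derived from the F statistic of the test. Col8a1 sits at -1.08 with a short bar, and Col4a1, Col4a2 and Col14a1, each with 0 counts in 2 libraries, have the longest bars.

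Stored shares were also compared after weighting each library to equal numbers of stored genes. The injured libraries both lay above the uninjured ones for 9 of 22 collagens, against 20.8% of 14368 genes, and both below for 5 of 22, against 27.2%. The 9 were Col24a1, Col15a1, Col16a1, Col26a1, Col4a2, Col5a3, Col12a1, Col22a1 and Col4a5, and the 5 were Col4a4, Col20a1, Col27a1, Col14a1 and Col8a1. Col26a1 was stored in 50.3% and 50.3% of uninjured and 59.0% and 59.6% of injured nuclei. Col14a1 was stored in 11.8% and 11.1% against 5.64% and 3.74%. The smallest exact p that this design allows, 0.33, holds for each. Without the weighting, 5 of the 9 turned sign: Col26a1 had a difference of -1.11 in place of 8.98 percentage points, Col4a2 -6.45 in place of 2.07, Col4a5 -0.90 in place of 6.61, Col24a1 -0.24 in place of 4.39 and Col22a1 -0.13 in place of 2.77. The 5 that lay below kept their direction, and Col14a1 had -8.03 in place of -6.74.

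The enzymes and partners of collagens were counted from 5 lists. Of 22 genes that modify, fold or export collagen, 17 could be tested and 2 marked a neuron cluster, against 1.52% of all genes that could, both in cluster 9: P4ha2, a subunit of the prolyl hydroxylase, and Plod2, a lysyl hydroxylase. P4ha2 stood there at 78.6, 67.1, 87.9 and 34.6 CPM, against 3.65 to 11.8 CPM in the other neurons. Plod2 stood at 153, 92.0, 87.9 and 17.3 CPM, against 3.29 to 6.84 CPM. Of 13 processing and cross-linking genes, 12 receptors, 15 degrading enzymes and inhibitors and 18 basement membrane partners, 0 marked a cluster in counts, with 5, 8, 10 and 8 of them testable. The stored rule was met by Tll1, Adamts2 and Itga1 in cluster 2 and by the laminin chain Lama2 in cluster 9, and in the modification list also by Fkbp14 in cluster 2. Cluster 2 was the deepest, and its weighted shares were only 1.46-fold to 1.84-fold higher for Tll1 and 0.95-fold to 1.40-fold for Fkbp14. Adamts2 kept 2-fold in 1 library and Itga1 in 2. The weighted share of Lama2 was 4.06-fold to 12.7-fold higher in cluster 9. None of these lists had a gene called after injury by edgeR. At an unadjusted p under 0.05 stood 2 of the 15 testable modification genes and 0 of 4, 5, 6 and 7 in the other lists, against 1.93% of all genes. These were Ppib and Plod3. Ppib, a prolyl isomerase of collagen folding, had 6.51 and 11.4 against 34.8 and 38.2 CPM (log2 fold change 1.98, SE 0.54, edgeR unadjusted p = 0.0188, adjusted 0.9996). Plod3 had 0 and 0 against 29 and 9 counts (edgeR unadjusted p = 0.0120, adjusted 0.9996). Whether the 0 counts of Plod3 in the uninjured libraries are entries emptied by the subtraction was not tested.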

How the data were processed

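The members and gene lists were chosen with earlier results of these data known. The deposited matrices hold whole-number counts per gene and nucleus. The submitters' processing notes name Cell Ranger, the build mm10 and Seurat 5.0.0. Strand use and the version of Cell Ranger are not stated there. File names mention SoupX, which subtracts free RNA, and 53.0% to 60.1% of stored entries hold 0. That these are detections emptied by the subtraction is a reading of the files.

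Nuclei with under 500 genes with a count (407) and 11 doublets called by Scrublet (scanpy 1.11.5; 0.306% of kept and doublet nuclei, few for droplet data) were left out. Seurat 5.3.0 aligned the libraries (CCA, 30 dimensions) on 2000 variable genes with collagens removed, and clustered them at resolution 0.5. Non-neuronal and inhibitory clusters were named from marker lists at 4-fold with at least 3 markers. Neurons were clusters with at least 3 pan-neuronal genes at 100 CPM. The glutamatergic name needed no 4-fold marker. It needed any Slc17a6 count, at least 3 V2a lineage genes stored in 5% of nuclei, and a minimum depth. Slc17a6 counts in these clusters ran from 1 (cluster 15) to 71 (cluster 9). Inhibitory or cholinergic markers reached 4-fold in cluster 3 (Gad2 and Chat, with 10 Slc17a6 counts) and cluster 9 (Slc5a7). These were fewer than the 3 markers needed for such a name. The check of the sorted lineage by its defining gene is not reported here. Named genes are members that mark a neuron cluster or are stored in 10% of a cluster, and, per companion list, up to 3 with the smallest injury p and up to 3 that mark a cluster. A few of these are given here. Counts summed per library were tested with edgeR 4.0.16 (TMM, filterByExpr, Benjamini-Hochberg over all genes, threshold 0.05), in clusters with at least 20 nuclei per library. The interaction had library as a block. The quasi-likelihood test of edgeR gives an F statistic and no standard error. Each SE of an edgeR value is the absolute log2 value divided by the square root of F. Alternatives included DESeq2 1.42.0 and limma 3.58.1. Weighted shares use 5 bins of stored genes (2 within clusters). The scripts were tested on simulated data. Intervals are Clopper-Pearson and cover counting error only.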

Additional observations from a re-analysis of the deposited data

Results flagged for a closer look

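One collagen gene was picked out because its injury difference in 1 cluster departed from that in the other glutamatergic nuclei. Col11a1 in cluster 8 had a log2 interaction of 3.76 (SE 0.78; edgeR adjusted p = 0.0086), and 0.216% of 8804 genes were called in this comparison. Its counts in cluster 8 were 0 and 3 in the uninjured and 22 and 2 in the injured libraries, so the value is carried by injured 1. Without injured 1 it was 1.62 (adjusted p = 1.0), and without uninjured 1 it was 2.82 (adjusted p = 0.109). Without uninjured 2, which leaves 0 counts in the uninjured cluster 8, it was 9.41 (adjusted p = 0.0011), and without injured 2 it was 4.44 (adjusted p = 3.08e-06). The stored shares overlapped, at 37.0% and 36.8% against 39.5% and 31.4%.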

How the results depend on the processing

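No collagen gene was called after injury in glutamatergic nuclei under any alternative run. Over all genes, 6 were called with no filter on low counts and 11 by DESeq2, and 0 to 308 on leaving out 1 library, the 308 without uninjured 1. In all, 10 collagens marked a cluster. The number was 5 at 8-fold (Col4a4, Col4a3, Col9a3, Col8a1 and Col4a6) and 16 on stored entries. Col9a3 passed 8-fold in uninjured 2 with 1 count, where the other neurons held 0 and were set to 3 counts. On leaving out 1 library the collagens called for the cluster 8 difference numbered 0 to 1. This alternative, the weighted shares, the Col8a1 refits, the glutamatergic rest and the count over the 25 testable collagens were chosen after seeing the data.

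Deviations from the group means had a correlation of -0.0587 between libraries of the same replicate number. With 2 libraries per group, both numbers give this same value by construction, so it cannot show whether the libraries were paired. With the replicate block 0 genes were called, and Col11a2 had a log2 fold change of -0.41. It was -0.37 by limma and -0.21 over all neurons. Col19a1, at -0.00, turned to 0.0108 with RLE scaling, 0.0110 by DESeq2 and 0.0673 over all neurons. Leaving out 1 library turned the sign of 13 collagens, none of them called, and the cause was not tested. Their log2 fold changes ranged from -8.48 to 9.25 for Col4a1, -9.63 to 9.95 for Col4a2, -0.80 to 0.31 for Col4a3, -3.12 to 0.14 for Col4a4, -0.47 to 0.41 for Col4a5, -2.20 to 1.78 for Col5a3, -2.04 to 1.01 for Col11a2, -0.17 to 0.76 for Col12a1, -1.73 to 2.51 for Col16a1, -0.35 to 1.45 for Col18a1, -0.38 to 0.31 for Col19a1, -0.0676 to 0.44 for Col20a1 and -0.0718 to 0.30 for Col25a1. For Col8a1 the value without 1 library ranged from -1.05 to -0.58 in cluster 6 and from -1.74 to -1.54 in cluster 9. Few nuclei per cluster and 2 libraries per group limit each comparison.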
